A study of Homo sapiens with 2 samples.

Results

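Pericentromeric peaks of the retinoblastoma protein Rb are described here: peaks whose summit lay within 4 Mb of the centre of a centromere on chromosomes 1 to 22 and X, by a fixed list of 23 centres in the human build hg19. By this rule 390 of 9393 peaks of the VCaP list and 719 of 21955 peaks of the LNCaP list were taken, 1109 in all. VCaP and LNCaP are established human prostate cancer cell lines that express the androgen receptor. Cells of passage 10 to 15 were kept in steroid-poor medium (5% charcoal-stripped serum) over 3 days before a 4 h exposure to the androgen dihydrotestosterone (DHT) at 10 nM, in both lines alike. Rb-bound chromatin was precipitated from each line with the same mouse monoclonal antibody and sequenced, with 1 library per line, so that no difference between the lines carries a test. After the authors' filtering the VCaP library held 8691938 tags and the LNCaP library 3671482, and each list was called against its own library, without input chromatin.

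Human centromeres are built on long arrays of alpha satellite DNA, flanked by other satellites and by segmental duplications, and the surrounding chromatin is largely heterochromatin. The hg19 assembly leaves most of each array out and keeps short pieces of satellite at the borders, where reads from many copies of a repeat can be placed together. Rb is best known for holding E2F transcription factors in check at the promoters of cell cycle genes. It has also been linked to heterochromatin, through partners that methylate histone H3 or bind the methylated form, and to condensin II at pericentromeric repeats.

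Pericentromeric peaks were 4.15% of VCaP peaks (exact 95% binomial interval 3.76 to 4.58) and 3.27% of LNCaP peaks (3.04 to 3.52). These intervals do not overlap, but they did once the peaks within 100 kb of the centromeric gap, described further on, were left out, with 3.21% (2.87 to 3.59) in VCaP and 3.01% (2.79 to 3.24) in LNCaP. They also overlapped without chromosome 10, with 3.79% (3.41 to 4.20) and 3.23% (2.99 to 3.47). There were 1.84 LNCaP peaks for each VCaP peak in these windows, against 2.34 over the 23 chromosomes. The intervals given here cover counting error only, and peaks of 1 library are not replicates. At the outer limit of the windows the peaks were ordinary: the 3 VCaP peaks just inside had fold enrichments of 6.20, 5.46 and 6.80, and the 3 just outside 8.04, 7.05 and 6.70. In LNCaP the 3 just inside had 4.57, 5.25 and 8.99, and the 3 just outside 6.62, 6.22 and 6.22.

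Every centre lay in a long interval that held no peak of either list. On the 19 chromosomes with peaks on both sides this interval spanned a median of 3.20 Mb, from 3.003 Mb on chromosome 8 to 21.1 Mb on chromosome 1. On chromosomes 13, 14, 15 and 22 no peak lay before the centre, on the short arm, and the first peak came after it. Whether hg19 holds sequence on these short arms, or within the other peak-free intervals, was not examined, since no hg19 genome was used. The lack of peaks there is therefore not read as a lack of Rb. On chromosome 21 peaks were found on both sides. On chromosomes 1, 9 and 16 the interval ran past the far end of the window, so that all their peaks lay before the centre. Below, this interval is called the gap, and its ends the border.

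**Figure D1:**
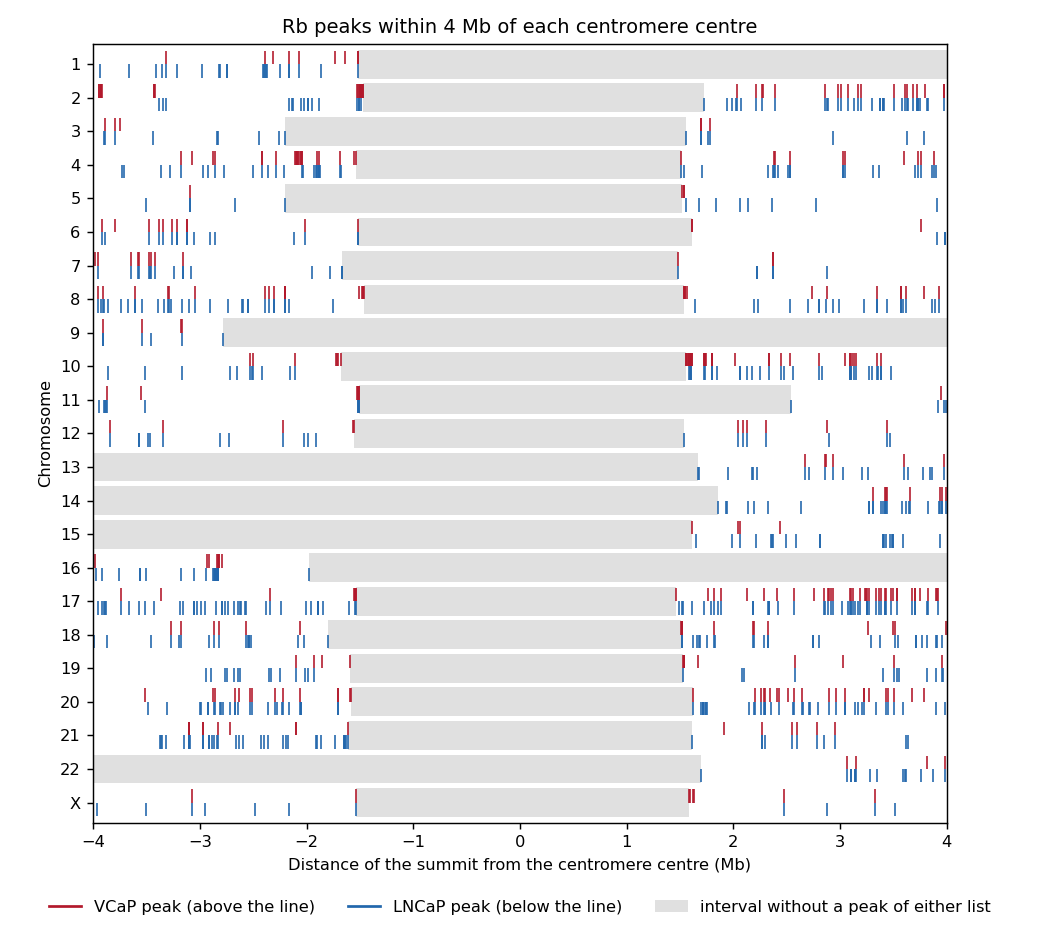
Position of each pericentromeric Rb peak by chromosome, as the distance of its summit from the centromere centre in Mb, with VCaP peaks drawn upwards in red, LNCaP peaks downwards in blue and the interval without a peak of either list in grey. Tight groups of VCaP peaks stand at the border of the grey interval on chromosomes 2, 8, 10, 11, 17, 18 and 19.

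The peaks were concentrated on a few chromosomes. Chromosomes 17, 10, 2, 20, 4 and 8 carried 236 of the 390 VCaP peaks, 60.5%, and 354 of the 719 LNCaP peaks, 49.2%. Chromosome 17 had the most in both lists, with 48 in VCaP and 88 in LNCaP. Chromosome 10 was the only one with more peaks in VCaP, 46 against 44, and LNCaP had more on the other 22. As a part of each chromosome's own list, the pericentromeric peaks of chromosome 10 made up 14.6% in VCaP (10.9 to 19.0) and 4.28% in LNCaP (3.12 to 5.70). On chromosome 21 the order was opposite, with 16 of 188 VCaP peaks, 8.51% (4.94 to 13.5), and 46 of 280 LNCaP peaks, 16.4% (12.3 to 21.3), and these intervals overlap. On chromosome 20 the shares were close, 11.3% in VCaP and 11.2% in LNCaP. Both lines are aneuploid, and the part of DNA copy number in these shares was not tested.

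Enrichment over the surroundings was similar to that of other peaks in the middle of the distribution, and in VCaP its upper end was filled mainly by peaks beside the gap. Fold enrichment is the ratio that the authors' peak caller formed between the tags stacked on the summit (the pileup) and the tags expected there from the surroundings. The median fold was 5.64 in VCaP (interval 5.47 to 5.84), against 5.49 for all other VCaP peaks (5.47 to 5.53). In LNCaP it was 6.07 (5.89 to 6.17) against 5.996 (5.98 to 6.04). A fold of at least 10 was reached by 25 of the 390 VCaP peaks, 6.41% (4.19 to 9.32), where 3.32% of all VCaP peaks reached it, and by 73 of the 719 LNCaP peaks, 10.2% (8.04 to 12.6), where 8.02% of all did. Of the 25 VCaP peaks 16 lay within 100 kb of the gap. Of the 299 VCaP peaks farther away 9 reached this fold, 3.01% (1.39 to 5.64), an interval that holds the 3.32% of the whole list. In LNCaP 65 of the 659 peaks farther away did, 9.86% (7.70 to 12.4). Among the 100 VCaP peaks of highest fold, 14 were pericentromeric (7.87 to 22.4%), against 4.15% of the list. Among the 100 of LNCaP, a smaller part of a longer list, 1 was (0.0253 to 5.45%), an interval that holds the 3.27% of that list.

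The lists differed more in pileup than in fold. At least 50 tags were stacked on the summit of 65 VCaP peaks near the centromeres, 16.7%, against 1.62% of all VCaP peaks. These 65 were 42.8% (34.8 to 51.03) of the 152 VCaP peaks with so high a pileup. In LNCaP 17 peaks, 2.36%, had at least 50 tags, against 0.92% of all LNCaP peaks, and they were 8.42% (4.98 to 13.1) of 202. Scaled to the size of the libraries, 50 VCaP tags correspond to 21.1 LNCaP tags. That level was passed by 19.3% of the pericentromeric LNCaP peaks and 18.9% of the other LNCaP peaks, while in VCaP it was passed by 16.7% and 0.966%. The median pileup was 13 unscaled tags in both lists, so the scaled level stood at unlike points of their distributions. At 100 unscaled tags or more, 23 of 37 VCaP peaks were pericentromeric, 62.2% (44.8 to 77.5), and 3 of 8 LNCaP peaks, 37.5% (8.52 to 75.5).

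The tags around the peaks followed the same pattern. The local background, computed back from fold and pileup and expressed as tags in the 10 kb around the summit, had a median of 80 tags in VCaP (73 to 85) against 67 for the other VCaP peaks (66 to 68). In LNCaP it was 48 (44 to 51) against 51 (50 to 52). Windows with more than 5 times the median of their list, over 340 tags in VCaP and over 255 in LNCaP, were called dense, a limit chosen, like that of 50 tags, after the data had been seen. Dense windows surrounded 57 of the 390 VCaP peaks, where 1.01% of all VCaP peaks had one, and 18 of the 719 LNCaP peaks, where 0.187% of all did. Of all VCaP peaks in dense windows, 60.0% (49.4 to 69.9) were pericentromeric, and of the LNCaP ones 43.9% (28.5 to 60.3). The highest background near a centromere was 2076 tags in VCaP and 467 in LNCaP. Tag numbers here and below are unscaled unless called scaled, and the VCaP library held 2.37 times as many tags. The tags of a peak are themselves part of its window.

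High pileups in VCaP became less frequent with distance from the border of the peak-free interval, by degrees. At least 50 tags were reached by 50.5% of VCaP peaks within 100 kb, 20.5% from 100 to 500 kb and 11.4% from 500 to 1000 kb. From 1000 to 2000 kb 0.794% reached them, and farther off 1.82%. Within 100 kb of the border lay 91 of the 390 VCaP peaks, 23.3% (19.2 to 27.9), and 60 of the 719 LNCaP peaks, 8.34% (6.43 to 10.6). The VCaP excess came from a few chromosomes, with 21 VCaP border peaks on chromosome 10, 14 on chromosome 2 and 10 on chromosome 8. VCaP had more border peaks on 12 chromosomes, LNCaP on 9, and the numbers were equal on 2. LNCaP had at least 1 on each of the 23 chromosomes and VCaP on 17. For each 1000000 tags of the library there were 10.47 border peaks in VCaP and 16.3 in LNCaP. Relative to the lists LNCaP had fewer: 0.659 LNCaP border peaks for each VCaP one, against 2.34 over all peaks of the 23 chromosomes. The VCaP border peaks had a median of 53 tags at the summit (33 to 62), against 14 (13 to 15) for the 299 farther away. The LNCaP border peaks had 10 (9 to 13), against 13 (12 to 14) for the 659 others. The local background was 224 tags in VCaP border peaks (178 to 380) and 70 (65 to 75) beyond, and 35 (28 to 48) and 49 (45 to 54) in LNCaP. The median background of border peaks was 3.34 times that of the peaks outside the windows in VCaP, and 0.686 times in LNCaP. The border is set by the outermost peaks themselves, 19 of VCaP and 20 of LNCaP within the windows, and without these the median pileup of the remaining border peaks was 59 in VCaP and 11 in LNCaP. The excess in number depends on which list sets the border: with borders from the LNCaP list alone there were 76 border peaks in each list.

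Border peaks of VCaP were seldom found in LNCaP. An LNCaP peak overlapped 22 of the 91, 24.2% (15.8 to 34.3), and 194 of the 299 VCaP peaks beyond 100 kb, 64.9% (59.2 to 70.3), where 71.2% of all VCaP peaks were overlapped. Beyond 100 kb the overlap did not rise steadily. It was 51.3% from 100 to 500 kb, 62.0% from 500 to 1000 kb and 75.4% from 1000 to 2000 kb. Farther from the border it was 54.5% (40.6 to 68.0, 55 peaks). All pericentromeric VCaP peaks together came to 55.4% (50.3 to 60.4), and VCaP peaks on the next stretch outwards, 4 to 8 Mb from the centres, to 75.4% (71.7 to 78.8). From the LNCaP side, 24 of 60 border peaks were overlapped, 40% (27.6 to 53.5), and 29.4% (26.0 to 33.1) of those beyond, where 30.2% of all LNCaP peaks were. The stretch from 4 to 8 Mb gave 31.5% in LNCaP. Leaving out chromosome 10, which held 21 of the 91, the VCaP border peaks were overlapped at 25.7%. The 100 kb limit and the 4 to 8 Mb stretch were chosen after the data had been seen.

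**Figure D2:**
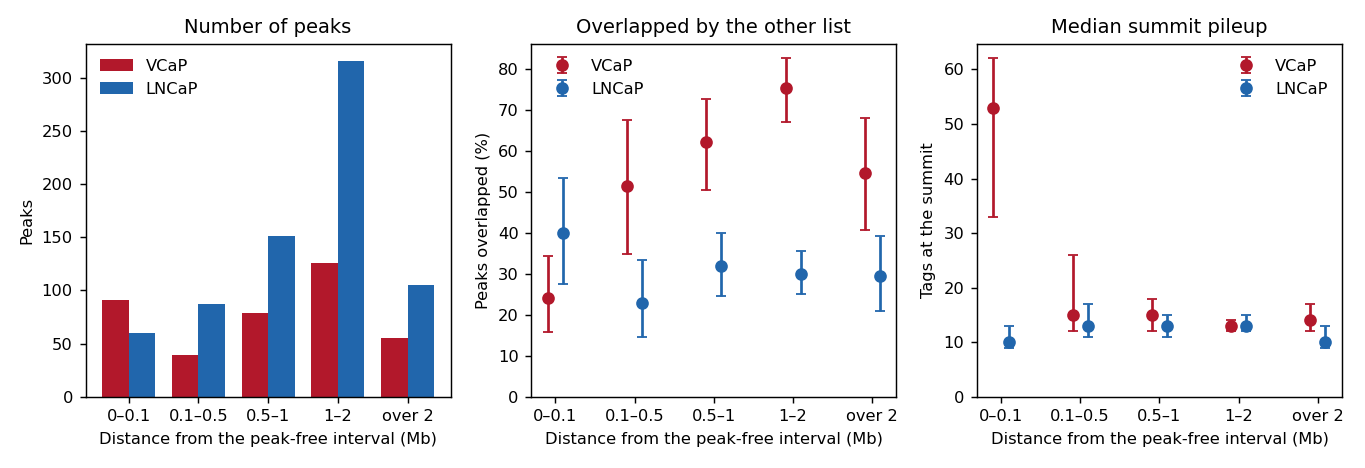
Pericentromeric Rb peaks by distance from the border of the peak-free interval in Mb: number of peaks (left), share overlapped by a peak of the other list in percent (middle) and median tags at the summit (right), VCaP in red and LNCaP in blue, with exact 95% intervals as bars. In the nearest 0.1 Mb VCaP has 91 peaks against 60, its overlap is 24.2% and its median pileup 53, while the LNCaP medians stay between 10 and 13 at every distance.

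The low overlap of VCaP border peaks was also seen within classes of summit pileup, in which pileups were not matched further. From 10 to below 20 tags at the summit, 1 of 14 VCaP border peaks was overlapped, against 71.8% of 188 pericentromeric peaks farther off and 74.7% of other VCaP peaks. Their median backgrounds, in the same order, were 59, 65 and 68 tags. From 20 to below 50 tags, 3 of 29 VCaP border peaks were overlapped, 10.3% (2.19 to 27.4), against 33 of 56 pericentromeric peaks farther off, 58.9% (45.0 to 71.9), and 1185 of 1355 other VCaP peaks, 87.5% (85.6 to 89.2). The median folds at 20 to below 50 tags were 7.60, 5.93 and 7.49, and the median backgrounds 151, 158 and 107 tags. With 50 tags or more the shares were 39.1% (25.1 to 54.6, 46 peaks), 63.2% (38.4 to 83.7, 19 peaks) and 88.5% (79.9 to 94.3, 87 peaks). In this class the border peaks had the lowest median fold, 5.40 against 13.1 for the other peaks, and the highest median background, 669.5 against 192 tags. LNCaP border peaks of 20 to below 50 tags were overlapped in 9 of 12 cases, and other LNCaP peaks of that pileup in 66.7%. The parts of pileup and of the dense background in the low overlap were not tested.

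**Figure D3:**
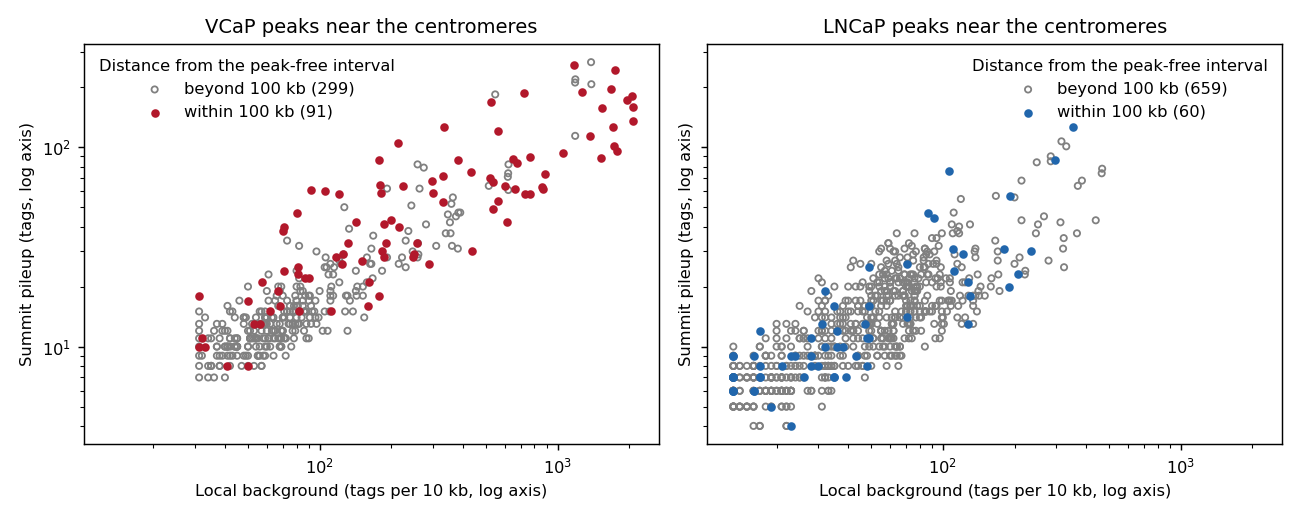
Tags at the summit against the local background in tags per 10 kb, both on log axes, for pericentromeric Rb peaks of VCaP (left) and LNCaP (right), with peaks within 100 kb of the peak-free interval filled. Of the 65 VCaP points with at least 50 tags 46 are filled, and their background reaches 2076 tags, whereas LNCaP points end at 467. Tags are not scaled to library size, and the VCaP library held 2.37 times as many.

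The VCaP border peaks came largely in tight groups. Peaks of the list that followed each other within 20 kb, with at least 4 in a row, held 94 of the 390 pericentromeric VCaP peaks, 24.1% (19.9 to 28.7), and 3.37% of the other VCaP peaks. In LNCaP these shares were 12.8% and 8.38%. Of the 91 VCaP border peaks 60 stood in 8 such groups. The largest, on chromosome 10 at 42356616–42409446 just after the centromere gap, counted 17 peaks over 52.8 kb with 21 to 244 tags at the summit and up to 2076 tags of background. Their folds were low, from 2.53 to 7.87, the fold being a ratio to these surroundings. LNCaP had 4 peaks there, with folds of 4.02 to 10.7, at most 86 tags and at most 295 tags of background, and all 4 overlapped VCaP peaks.

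Further groups stood on both sides of the gap in VCaP. On chromosome 2 at 92269322–92325323, before the gap, 14 VCaP peaks had 24 to 87 tags and folds of 2.87 to 18.1, and 3 of them were overlapped by LNCaP peaks, which had at most 9 tags. On chromosome 17 at 22247053–22261684, 6 VCaP peaks reached 169 tags and a fold of 13.3, and the 2 LNCaP peaks there at most 13 tags. On chromosome 18 at 18512861–18520271, 4 VCaP peaks had 94 to 158 tags over a background of up to 1786 tags, with folds of 2.36 to 4.45. The LNCaP peaks there had at most 31 tags. On chromosome 19 at 27731883–27738674, 5 VCaP peaks had 63 to 186 tags. Only the first of them was overlapped, by an LNCaP peak with 44 tags and a fold of 13.99.

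Chromosome 8 carried border groups on both sides that the LNCaP list lacked entirely. Before the gap, at 43822257–43838785, 4 VCaP peaks had folds of 6.45 to 15.1 and 33 to 59 tags. After it, at 46841589–46868651, 5 VCaP peaks had folds of 3.62 to 11.2 and 18 to 59 tags. No LNCaP peak lay in either stretch. On chromosome 11 at 51569918–51591365 the group was shared, but at different heights: 5 VCaP peaks had folds of 8.64 to 17.5 and 58 to 127 tags, and 4 LNCaP peaks there had folds of 5.67 to 11.9 and at most 25 tags, from a library with fewer tags.

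Groups of VCaP peaks were not limited to the border. On chromosome 4 at 49093955–49156699, about 503 kb from the gap, 11 VCaP peaks had 18 to 56 tags and folds of 3.34 to 13.2, and LNCaP had 1 peak there, with 15 tags. On chromosome 2 at 89850392–89879356, 6 VCaP peaks of 21 to 34 tags had no LNCaP peak beside them. On chromosome 7 the peak of highest pileup among all pericentromeric VCaP peaks, at 61968699–61969716 and 889 kb from the gap, had 267 tags, a fold of 8.34 and a background of 1383 tags. Its LNCaP partner had 56 tags, a fold of 9.79 and a background of 200 tags. The VCaP peak with the next highest pileup, 259 tags at 121484218–121485431 on chromosome 1, lay at the border. It coincided with the highest pileup among pericentromeric LNCaP peaks, 127 tags from a library with fewer tags.

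The leading VCaP peaks by fold lay at the border, and the LNCaP list held partners for 5 of 10. The first, on chromosome X at 61720757–61721166, had a fold of 20.2 and 61 tags and no LNCaP partner. The next, on chromosome 21 at 11186441–11186991, had a fold of 18.3 and 105 tags, and its LNCaP partner a fold of 21.7 and 76 tags. A further 4 leaders had no partner. A chromosome 2 peak at 92281268–92281556 had a fold of 18.1 and 60 tags, and one of chromosome 4 spanning 49659443–49659824 a fold of 17.1 and 47 tags. Chromosome 11 had a peak of fold 15.8 at 51569918–51570203, with 58 tags. The fourth, of fold 15.1 and 38 tags, stood on chromosome 8 at 43838492–43838785. Other leading VCaP peaks had much lower folds in LNCaP. A peak on chromosome 11 at 51591057–51591365 had 17.5 in VCaP and 6.38 in LNCaP, where 8 tags were stacked. A peak on chromosome X at 58561237–58561621 had 15.8 in VCaP and 6.07 in LNCaP, with 7 tags. The remaining leaders had similar folds in both lists: 15.03 in VCaP and 11.9 in LNCaP for a chromosome 11 peak at 51579319–51579739, and 13.9 and 14.04 for a chromosome 10 peak at 42529208–42529699. Of these 10 all but the last lay within 100 kb of the gap, and the 5 highest without an LNCaP partner all did.

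The leading LNCaP peaks were spread more evenly over the windows. Of the 10 highest by fold, 4 lay within 100 kb of the gap and 7 had a VCaP partner. The peak on chromosome 21 led with 21.7. It was followed by a border peak of chromosome 20 at 29518363–29518960, whose fold was 15.5 in LNCaP and 6.31 in VCaP. A chromosome 9 peak spanning 44992988–44993440 came next, with a fold of 14.9 against 7.64. A peak on chromosome 18 at 19192086–19192669 was high in both lists, with 14.5 in LNCaP and 13.2 in VCaP, and lay 679 kb from the gap. The 5 highest LNCaP peaks without a VCaP partner were 282 to 2070 kb from it. Chromosome 14 held a pair of them, of fold 14.04 at 19641228–19641615 and of fold 13.3 at 21429320–21429679. The others were a chromosome 15 peak of fold 13.9 (20990583–20990970), a chromosome 10 peak of fold 13.8 (44069561–44070275) and a chromosome 7 peak of fold 13.1 (56439287–56439713). Their pileups, between 22 and 33 tags, lay above the median of 13 of their list's pericentromeric peaks. One unpartnered LNCaP peak had a high pileup, that on chromosome 17 at 21906085–21906827 with 101 tags and a fold of 11.4.

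LNCaP peaks also stood in groups, some beside VCaP peaks and some without. On chromosome 16 at 33922207–33965906, 11 LNCaP peaks had 8 to 64 tags and a background of up to 369 tags, with folds of 2.96 to 6.57. VCaP peaks overlapped 2 of them, and belonged to a VCaP group of 4 peaks at 33963051–33975602 with 30 to 62 tags and a background of up to 390 tags. On chromosome 20 at 29594345–29653513, after the gap, 7 LNCaP peaks had folds of 6.34 to 8.76 and 9 to 31 tags, without a VCaP peak. On chromosome 4 at 49272588–49323621, 8 LNCaP peaks had folds of 4.85 to 10.4, and 1 was overlapped. On the short arm of chromosome 21 at 9695821–9704870, 4 LNCaP peaks had 41 to 107 tags, and 3 of them were overlapped by VCaP peaks, which had at most 36.

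The 5 acrocentric chromosomes 13, 14, 15, 21 and 22, whose short arms carry satellites and ribosomal genes, held 38 VCaP and 128 LNCaP peaks. All peaks before their centres were on chromosome 21, 10 in VCaP and 35 in LNCaP, and whether hg19 covers the other short arms was not examined. VCaP peaks on these chromosomes were overlapped in 27 of 38 cases, 71.1%, where 71.2% of all VCaP peaks were. LNCaP peaks on them were overlapped in 28 of 128 cases, 21.9%, where 30.2% of all LNCaP peaks were. Chromosome 15 had 4 VCaP and 21 LNCaP peaks, none of which overlapped each other.

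Where both lists had a peak, the tags around it were shifted towards VCaP at the border. Among the 216 pericentromeric VCaP peaks with an LNCaP partner, summits were a median of 63 bp apart (50 to 76), and the fold was the higher in VCaP in 50, 23.1% (17.7 to 29.4), against 19.1% of the other pairs. The 22 border pairs had a higher fold in VCaP in 11, and their median log2 ratio of LNCaP over VCaP fold was 0.03 (-0.37 to 0.43). The 194 pairs farther off had 0.42 (0.33 to 0.50). Scaled to the library, the background of the border pairs was higher in VCaP in 19 of 22, with a median log2 ratio of VCaP over LNCaP of 1.56 (1.19 to 2.15). Beyond 100 kb it was higher in VCaP in 17 of 194, with a median of -1.13 (-1.24 to -0.99), near the -1.24 of the pairs outside the windows. Scaled to the library, summit pileups moved likewise, with a median log2 ratio of 1.10 (0.26 to 1.67) at the border and -1.75 beyond. In unscaled tags the border pairs had medians of 541.5 tags of background in VCaP and 89.5 in LNCaP. Pairs beyond 100 kb had 71.5 in VCaP and 70 in LNCaP, and pairs outside the windows 72 and 74. Border pairs of the same group share surroundings, as on chromosome 11, where neighbours had 334 and 331 VCaP tags. The 22 pairs are therefore not independent values, and the intervals do not allow for this.

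**Figure D4:**
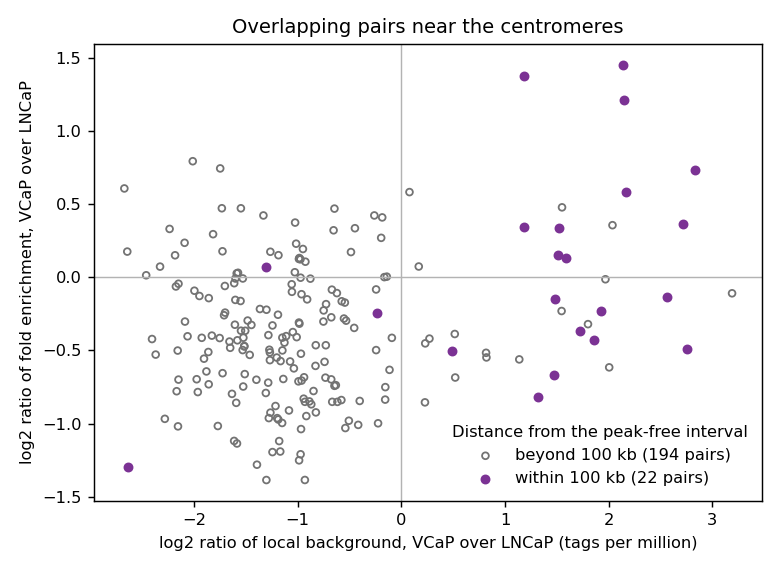
Each point is an overlapping pair of pericentromeric peaks, placed by the log2 ratio of VCaP over LNCaP in local background scaled to library size (horizontal) and in fold enrichment (vertical), with pairs within 100 kb of the peak-free interval filled. To the right of 0 lie 19 of the 22 filled pairs and 17 of the 194 open ones.

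The pairs that ranked best in both lists were of both kinds. The best was the border site on chromosome 21, ranked 11 in VCaP and 7 in LNCaP, with similar backgrounds of 24.5 and 28.9 tags per 10 kb once both libraries were scaled to 1000000 tags. Next came the site at 19192249–19192610 of chromosome 18, ranked 92 and 206. The chromosome 10 site at 42529208–42529699 ranked 77 and 247, and the border site of chromosome 19 (27731883–27732428) ranked 230 and 259. On chromosomes 10 and 19 the pileups were 184 and 186 tags in VCaP and 33 and 44 in LNCaP, while the folds lay between 10.9 and 14.04. The border site on chromosome 1 ranked 388 and 335, with folds of 9.50 and 13.5. Of the other 5 best pairs, 2 were on chromosome 20: the VCaP fold was 11.6 and the LNCaP fold 12.4 at 25388137–25388660, and 11.8 and 12.2 at 26189742–26190461. A chromosome 8 site (48173264–48173909) had folds of 9.74 in VCaP and 12.02 in LNCaP. The last 2 were a chromosome 6 site (56911174–56911636), with 8.51 and 12.95, and a chromosome 12 site (38710206–38710740), with 8.93 and 11.9.

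Neither list has an input library, so that Rb binding and the placing of repeat reads at these sites cannot be told apart. The overlap of the pericentromeric VCaP peaks moved with the window, from 30.8% within 2 Mb of the centres to 67.4% within 8 Mb, and it was 58.6% without the peaks in dense windows.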

How the data were processed

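The files hold Rb ChIP-seq peaks of 1 VCaP and 1 LNCaP library, grouped by line as labelled. The authors' peak caller was MACS 2.1.0.20140616, per the file headers, run on each library without a control at a q-value limit of 0.05, with 1 tag kept per position, 75 bp tags, and modelled fragments of 225 bp (VCaP) and 241 bp (LNCaP). The submitters' processing notes name hg19, MACS2 and HOMER; the aligner is not given in the sources used here. The deposited pileup is an unscaled coverage signal, the deposited fold enrichment a ratio to the local background, the deposited significance −log10 p and −log10 q, and the deposited length is in bp.

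Background was computed back from fold and pileup as tags per 10 kb; 100% of values above the genome mean (31.2 tags in VCaP and 13.2 in LNCaP, the lowest values possible) came out whole within 0.05. Overlap means at least 1 shared bp, with the partner of highest fold taken. Shares have exact binomial (Clopper-Pearson) and medians exact order-statistic 95% intervals; no test was run. Functions were tested on simulated data (Python 3.11.15, scipy 1.17.1). Named peaks are the 10 of highest fold and 3 of highest pileup in each list, the 10 best-ranked pairs, and the 5 highest without overlap; groups of at least 4 peaks within 20 kb were chosen after seeing the data. The peaks, windows and comparisons were chosen with earlier results of these data known. Genes and sequences at the peaks were not analysed here, since no hg19 genome or annotation was used.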

Additional observations from a re-analysis of the deposited data

Results flagged for a closer look

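In 3 measures the difference between pericentromeric and other peaks had opposite signs in the lists, which was not tested with 1 library per line. The share overlapped differed by -16.5 percentage points in VCaP and by 0.107, close to 0 beside its interval of 27.0 to 33.8%, in LNCaP. The difference in median length was 8.5 bp for VCaP peaks and -12 bp for LNCaP peaks, and in each list the intervals of the medians overlapped. Scaled to libraries of 1000000 tags, the median local background differed by 1.496 tags per 10 kb in VCaP and by -0.817 in LNCaP.

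On chromosomes 1, 9 and 16 the peak-free interval is longer than the window, and peaks within 4 Mb of its ends fell outside the rule. In VCaP there were 20 such peaks on chromosome 1, 14 on chromosome 9 and 17 on chromosome 16, and in LNCaP 79, 48 and 67. Within 100 kb of the interval lay 1, 2 and 11 of these VCaP peaks and 4, 11 and 1 of these LNCaP peaks, in the same order, so that LNCaP had more on chromosomes 1 and 9 and VCaP on chromosome 16. The highest on chromosome 9 was at 67320526–67320984 in VCaP, with a fold of 20.8, and at 44070520–44070957 in LNCaP, with 21.9.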

How the results depend on the processing

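Of 152 recomputed values 106 stayed within the interval of the reported one (counts within 1.5 times) and 46 moved. The VCaP share of the list stayed above the LNCaP share in each setting, but their intervals overlapped at 6 and 8 Mb, with lists of equal length, without border peaks, without dense windows, without chromosome 10 and within 4 Mb of the gap's ends. Narrower windows held fewer VCaP peaks with less overlap: with 2, 3, 6 and 8 Mb the VCaP share of the list was 1.25, 2.57, 7.05 and 10.4%, the LNCaP share 0.547, 1.85, 6.22 and 9.60%, and the overlapped VCaP share 30.8, 47.3, 63.4 and 67.4%. At 2 Mb the median VCaP fold was 6.19 and a fold of 10 was reached by 15.4% in VCaP and 13.3% in LNCaP, and at 3 Mb by 9.96% in VCaP. With −log10 q of at least 5, VCaP had a share of 5.17%, overlap of 50%, median fold of 6.25 and 9.33% at a fold of 10, and LNCaP a median fold of 7.001 and 14.7%. With lists of equal length, overlap was 40.3% in VCaP and 48.9% in LNCaP, with an LNCaP median fold of 8.02 and 22.9% at a fold of 10. A fold of 15 was reached by 2.31% in VCaP (9 peaks) and 0.278% in LNCaP (2 peaks), and the shares of all peaks at this fold were not computed. When each peak had to cover 50% of the other, overlap was 35.1% in VCaP, 19.1% in LNCaP and 25% for LNCaP border peaks, and with summits within 200 bp 48.5% and 26.3%. The LNCaP ratio of median pileup to that of other peaks was 1.0.

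Further alternatives were chosen after seeing the data. Without border peaks the VCaP share of the list was 3.21% and its overlap 64.9%, and the LNCaP share of the list was 3.01%. A fold of 10 was then reached by 3.01% of the pericentromeric VCaP peaks (1.39 to 5.64), an interval that holds the 3.32% of the whole list. At least 50 tags were reached by 6.35% of these VCaP peaks. Without dense windows the VCaP share was 3.58%. Within 4 Mb of the gap's ends, the VCaP share was 7.13% with overlap of 62.5%, and the LNCaP share 6.43%. With ends from the VCaP list alone there were 116 VCaP and 91 LNCaP border peaks, the latter with a median of 14 tags, and with ends from the LNCaP list alone the overlapped share of VCaP border peaks was 35.5%. Over all settings it ran from 16.5 to 35.5%. The causes of these shifts were not tested beyond what each setting removes. No paired analysis was possible because each line has 1 library and the labels carry no replicate numbers. With 1 library per line, no input and LNCaP depth of 3671482 tags, a peak missing from LNCaP may lie under its detection limit, which was not tested. The lowest pileup of any peak on the 23 chromosomes was 4 tags in LNCaP and 6 in VCaP.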
